A study of Mus musculus with 45 samples.

Results

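The Nanog locus of mouse embryonic stem cells was followed here as 56 peaks of open chromatin out of the 184964 peaks of the deposited list, every peak on chromosome 6 whose summit lies in a window of 200 kb around Nanog, Dppa3, Gdf3 and Slc2a3. The last of these peaks ends at base 122786709 of the mm10 assembly. Peaks in the region were taken by position and by no measured change, but the region was chosen with earlier results of these data known. Accessibility was measured by ATAC-seq, in which a transposase cuts and tags DNA that is not covered by nucleosomes, so that the number of reads over a peak reports how open it was. Each peak is named by the distance of its summit from the Nanog start, so that the peak at 0.0 kb is the Nanog promoter.

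The cells were 3 degron lines, in which 1 transcription factor gene carries an FKBP tag and the tagged protein is destroyed when the small molecule dTAG-13 is added. SOX2-FKBP and NANOG-FKBP cells were made in the E14 embryonic stem cell line and OCT4-FKBP cells in V6.5. All were grown without serum, with LIF and inhibitors of MEK and GSK3, and were given 500 nM dTAG-13 or DMSO as the control, called NT. SOX2-FKBP cells had 2 libraries each at NT and after 0.5, 1, 2, 6 and 24 h, OCT4-FKBP cells had 2 each at NT and after 2, 6 and 24 h, and NANOG-FKBP cells had 2 at NT and 3 each after 2, 6 and 24 h. The SOX2 and NANOG lines were picked homozygous clones that also express a fluorescent reporter from the tagged gene, and untagged cells were not analysed here. The counts do not measure the depletion itself.

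Nanog encodes a homeodomain protein that with OCT4 and SOX2 forms the core of the pluripotency network of embryonic stem cells. Of its neighbours, Dppa3 encodes STELLA, a maternal factor that guards DNA methylation in the early embryo, Gdf3 encodes a ligand of the TGF-beta family, and Slc2a3 encodes the glucose transporter GLUT3. Their expression was not measured here. OCT4 binds DNA through a POU domain and SOX2 through an HMG box, often side by side on a joint SOX-POU sequence, and enhancers on both sides of the Nanog gene are known to act on it.

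In these coordinates Gdf3 spans chr6:122605403-122610087 on the minus strand, Dppa3 chr6:122626410-122630272 on the plus strand, Nanog chr6:122707489-122714633 on the plus strand and Slc2a3 chr6:122727809-122801640 on the minus strand, where 8 starts are annotated for Slc2a3. Of the 56 peaks, 27 had intergenic summits, 22 intronic, 4 in untranslated exon sequence and 3 in coding exons. Their widths ran from 234 to 2492 bases with a median of 778, against 636 over all peaks. For counting they were placed in 6 segments along the chromosome: 6 peaks around Gdf3, 10 around Dppa3, 10 around the known enhancer 45 kb before Nanog, 9 around Nanog, 11 over the 3′ part of Slc2a3 and the promoter at +35.1 kb, and 10 around the known enhancer 60 kb past the Nanog start. Summits lay 33 bases from the Nanog start, 67 bases from a Dppa3 start (the -81.1 kb peak) and 47 bases from an Slc2a3 start (the +35.1 kb peak), while no summit lay within 1 kb of a Gdf3 start. The +24.9 and +72.6 kb summits lay within 1 kb of other annotated Slc2a3 starts. The segment named for Gdf3 also takes in the gene Apobec1, which holds its summits from -116.2 to -105.0 kb. The -105.0 kb summit lay 4 bases from an Apobec1 start.

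The 31 libraries held 1817191 to 17575631 counts. Chromosome 6 took 4.87 to 5.17% of the counts in SOX2-FKBP libraries, 6.05 to 6.15% in OCT4-FKBP replicate 1 and 7.29 to 7.59% in OCT4-FKBP replicate 2, so that every comparison below stays within a line or compares changes between lines, and no level is set against that of another line. The 3 treated NANOG-FKBP libraries of replicate 2 stood apart, with 1817191 to 3272168 counts and 13.2 to 17.6% of counts on mitochondrial DNA, against 4247580 counts or more and 1.43 to 6.65% in the other 28. Promoter peaks of all 6 embryonic stem cell markers listed (Pou5f1, Sox2, Zfp42, Esrrb, Dppa5a, Tfcp2l1) were present, with a summed level of 121 to 146 CPM (counts scaled to library size) in NT libraries, against 26.5 to 42.1 for 6 fibroblast genes, of which Col3a1 and Prrx1 had no promoter peak, 31.3 to 59.4 for 4 primitive endoderm genes and 28.1 to 62.6 for 4 trophoblast genes. A lower level in bulk chromatin can come from fewer cells with the site open or from less opening in each cell, and these cannot be told apart here. The labels do not state that replicates came from separate cultures, so the p-values measure the spread between these libraries, which may be technical. The study's text reports duplicates for every line and, for SOX2, a further independent clone. The labels do not say whether a SOX2-FKBP library came from that clone. All times of a line share its NT libraries. Levels are CPM with TMM scaling, over the 12 libraries of the SOX2-FKBP line and over 27 libraries for the other lines.

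The sequences under 4 of the summits are shown because the comparisons turn on these peaks. They are the mm10 plus strand, with matches to 3 sets of letters in capitals: CNTTGT for SOX factors, ATGCAAA for POU factors, and the joint form of CNTTGT, any 1 base and ATGC, each on either strand. The Nanog promoter (chr6:122707396-122707515) holds the joint form on the minus strand, where it reads CATTGTAATGC and overlaps the POU match. The -82.8 kb peak upstream of Dppa3 (chr6:122624610-122624729) has a pair of POU matches, the +63.1 kb peak in an intron of Slc2a3 (chr6:122770415-122770714) has 3 SOX matches, and the -4.7 kb peak (chr6:122702684-122702803), the most open of the locus, has none of the 3.
Nanog promoter, 0.0 kb: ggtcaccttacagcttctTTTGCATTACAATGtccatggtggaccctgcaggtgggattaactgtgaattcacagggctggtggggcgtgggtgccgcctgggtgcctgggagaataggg
-82.8 kb: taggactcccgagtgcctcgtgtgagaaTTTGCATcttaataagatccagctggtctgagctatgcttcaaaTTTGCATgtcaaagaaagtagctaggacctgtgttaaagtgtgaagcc
+63.1 kb: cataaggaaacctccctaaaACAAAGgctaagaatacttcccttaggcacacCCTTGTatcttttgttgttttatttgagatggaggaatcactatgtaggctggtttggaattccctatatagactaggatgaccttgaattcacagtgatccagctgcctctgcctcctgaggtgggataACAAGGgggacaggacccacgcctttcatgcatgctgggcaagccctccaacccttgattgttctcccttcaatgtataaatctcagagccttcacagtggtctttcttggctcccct
-4.7 kb: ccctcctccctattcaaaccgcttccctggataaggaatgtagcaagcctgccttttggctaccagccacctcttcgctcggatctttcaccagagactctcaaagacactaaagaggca

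In the 300 bases around the summit, 27 of the 56 peaks held SOX letters (48.2%, against 49.2% of the 184798 peaks with sequence), 6 held POU letters (10.7% against 6.45%) and 1, the Nanog promoter, held the joint form (1.79% against 0.5%). Letters for the KLF family (GGGNGTGG) were in 17 peaks (30.4% against 17%), those for ESRRB (CAAGGTCA) in 2 (3.57% against 5.2%), and those for STAT factors (TTCCNGGAA) or CTCF in 0 (against 1.28% and 1.57%). A match is a description of the letters and not a measured binding site, and a window without one says only that these letters are not in it.

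In NT cells the peak at -4.7 kb, which lies in the known upstream enhancer of Nanog, had the highest level per kilobase of all 56 in each line: 46.0 CPM per kb in SOX2-FKBP, 86.0 in OCT4-FKBP and 54.6 in NANOG-FKBP cells. The Nanog promoter came next in SOX2-FKBP cells at 33.8 and in OCT4-FKBP cells at 42.1 CPM per kb, and in NANOG-FKBP cells it stood level with the -44.4 kb peak at 24.9. The -82.8 kb and +57.5 kb peaks were among the 5 most open peaks of every line. The median over the 56 peaks was 10.55, 15.7 and 7.41 CPM per kb in these lines, and at the lower end the Dppa3 promoter was the least open peak of the NANOG-FKBP line at 0.703 CPM per kb.

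After SOX2 depletion the earliest losses at the locus lay away from Nanog, and the Nanog promoter was called lost at 2 and 24 h. The +63.1 kb peak had fallen to 49.1% of its NT level at 0.5 h and was the only 1 of the 56 called at all 5 times. The -116.2 kb and -82.8 kb peaks were lost as well at 1 h, and the +8.5, +37.3, +57.5 and +58.8 kb peaks at 2, 6 and 24 h. A peak is called lost or gained here when its change from NT passed an adjusted p of 0.05 in edgeR's quasi-likelihood test over all 160432 peaks tested in this line.

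The counts of lost peaks in SOX2-FKBP cells were 1 of 56 at 0.5 h (1.79%, against 3.14% of all peaks tested), 3 at 1 h (5.36% against 5.46%), 8 at 2 h (14.3% against 7.28%), 7 at 6 h (12.5% against 9.28%) and 12 at 24 h (21.4% against 14.1%). At 0.5, 1 and 2 h 0 peaks were gained by edgeR, with 2, 2 and 1 at an unadjusted p under 0.05 and 0 by DESeq2, against 0.158%, 0.889% and 1.46% of all peaks. At 6 h 1 peak was gained (-20.6 kb, against 2.66% of all peaks) and at 24 h 1 (+35.1 kb, against 9.17%). Where 1 library is left out, here and below, it is 1 of the groups compared, that is of NT or of the time given. Leaving out any 1 library gave 0 to 1, 1 to 3, 4 to 6, 3 to 7 and 8 to 13 lost peaks at the 5 times, and 0 gained at each. The count at 1 h was 1 without NT replicate 2, that at 2 h was 5 without either NT library and 4 without 2 h replicate 2, and that at 6 h was 4 without either NT library and 3 without 6 h replicate 2. The median log2 fold change of the 56 was -0.08, 0.00, -0.05, -0.23 and -0.22 at the 5 times, beside -0.01 to 0.04 for all peaks. A fit that blocks on the replicate number, which pairs the libraries of this line and of OCT4-FKBP, called 7 lost peaks at 1 h in place of 3, and 2 at 0.5 h in place of 1, with the -116.2 kb peak (log2 fold change -0.51, adjusted p = 0.0387) added at 0.5 h and the Nanog promoter (-0.51, adjusted p = 0.00834) among those added at 1 h. In this fit 1 peak was gained at 0.5 h and 1 at 1 h, the -20.6 kb peak each time, and 2 at 6 h, the second being the +5.8 kb peak.

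In OCT4-FKBP cells the earliest losses were near Gdf3 and Dppa3. The -98.9, -89.8 and -82.8 kb peaks there and the +44.2 kb peak in Slc2a3 were lost at all 3 times, though at 2 h the -82.8 kb peak was the only 1 of these 4 whose call held with any 1 library left out. The Nanog promoter was called from 6 h, and the peaks at +4.3, +5.8 and +8.5 kb, over and just past the Nanog gene, at 24 h. Of the 13 peaks lost at 24 h, 5 were also among the 12 lost at 24 h of SOX2 depletion, which is 38.5% of the OCT4 list and 41.7% of the SOX2 list. These 5 were -89.8, 0.0, +4.3, +8.5 and +72.6 kb. The 2 lists come from different fits, the SOX2 list from 12 libraries and the OCT4 list from 27. In the fit of 27, +8.5 kb was not called at 24 h of SOX2 depletion (-0.616, adjusted p = 0.259), and the others of the 5 were. The overlap of the 2 lost lists over all peaks is not given here, so these shares have no background.

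The counts of lost peaks in OCT4-FKBP cells, over 166430 peaks tested, were 4 at 2 h (7.14%, against 5.10% of all peaks), 6 at 6 h (10.7% against 7.97%) and 13 at 24 h (23.2% against 12.7%), and the last fell to 5 without 24 h replicate 1. At 2 h 1 was left without NT replicate 2, 2 h replicate 1 or 2 h replicate 2, and at 6 h 4 were left without NT replicate 1, NT replicate 2 or 6 h replicate 2. Gained peaks numbered 1 at 2 h (1.79% against 1.92%), 5 at 6 h (8.93% against 4.12%) and 3 at 24 h (5.36% against 10.8%), and 4 of the 5 at 6 h lay in the Slc2a3 segment. The gained peaks at 2 h were 0 without 2 h replicate 1 and 5 without 2 h replicate 2, and those at 6 h were 3 without either NT library and 2 without 6 h replicate 1. The median log2 fold change of the 56 was 0.03, -0.03 and -0.32, beside -0.01 to 0.02 for all peaks. With the replicate block the gained peaks numbered 8, 11 and 5. The summed level of the 4 primitive endoderm markers was 50.7 to 54.6 CPM in NT and 58.7 to 89.3 CPM at 24 h of OCT4 depletion, that of the 4 fibroblast genes with a peak 38.0 to 42.1 and 37.4 to 56.4, and that of the 4 trophoblast genes 49.0 to 62.6 and 39.4 to 56.5. Their part in the changes at the locus was not tested.

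NANOG depletion left few calls at the locus: 1 peak, at -116.2 kb, was lost at 2, 6 and 24 h (1.79% each time, against 0.938%, 1.08% and 2.25% of all peaks). At 2 h 0 peaks were gained by edgeR, with 1 at an unadjusted p under 0.05 and 0 by DESeq2, against 0.0162% of all peaks. Then 1 peak was gained at 6 h (+8.5 kb, against 0.0367%) and 2 at 24 h (+8.5 and -17.2 kb, against 0.288%). The median of the 56 log2 fold changes was 0.18, 0.17 and 0.18, beside 0.00 to 0.03 for all peaks. Over the 3 lines together 30 of the 56 peaks were called at no time, 26 were called at least once, and no peak was lost in all 3 lines. The shares of all peaks for these joint counts are not given here, so whether they are usual is not known. Together the 56 peaks took 0.0579 and 0.0570% of counts in the SOX2-FKBP NT libraries and 0.0472 and 0.0445% at 24 h. These shares were 0.0805 and 0.0947% against 0.0618 and 0.0806% in the OCT4-FKBP line, and 0.0540 and 0.0472% against 0.0595, 0.0637 and 0.0543% in the NANOG-FKBP line.

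**Figure D1:**
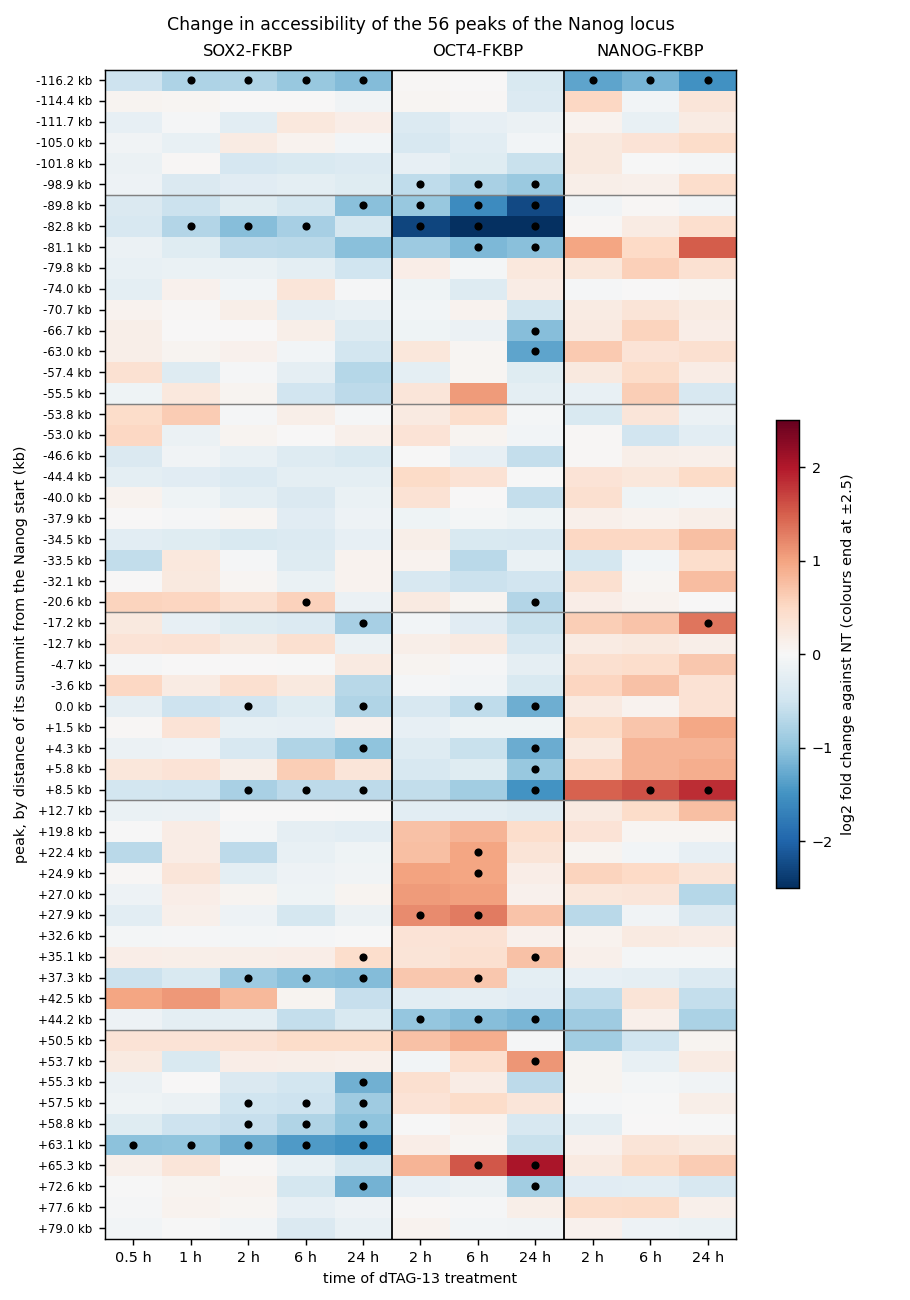
Log2 fold change from NT of the 56 peaks (rows, from -116.2 to +79.0 kb, with lines between the 6 segments) at each time of dTAG-13 in the 3 lines (columns), with a dot where edgeR's adjusted p was under 0.05. The dots at +63.1 kb run through all 5 times of SOX2 depletion and those at -82.8 kb through all 3 times of OCT4 depletion, while the NANOG-FKBP columns hold 6 dots in all.

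The Nanog promoter peak (chr6:122706959-122707804) lost accessibility after depletion of SOX2 or OCT4 and passed no test after depletion of NANOG. In SOX2-FKBP cells its level was 29.7 and 27.5 CPM in the 2 NT libraries, 22.8 and 26.6 at 0.5 h, 21.9 and 18.1 at 1 h, 21.2 and 19.7 at 2 h, 23.8 and 22.7 at 6 h and 16.3 and 17.7 at 24 h. Every treated library was below both NT libraries, and the 24 h libraries were the lowest. The mean was 28.58 ± 1.53 CPM (SD, n = 2) in NT and at 24 h 59.5% of that, a log2 fold change of -0.75 ± 0.16 (SE, adjusted p = 0.00049). The earlier change at 2 h was -0.49 ± 0.16 (adjusted p = 0.0445), and it was not called without any 1 of the 4 NT and 2 h libraries (-0.43 to -0.56, adjusted p 0.105 to 0.321). At 6 h the change was -0.30 ± 0.16 (adjusted p = 0.25).

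In OCT4-FKBP cells the same promoter had 32.5 and 38.8 CPM in NT, 28.1 and 26.3 at 2 h, 23.5 and 22.4 at 6 h and 14.5 and 16.3 at 24 h. The groups did not overlap at any time, and the level went down from each time to the next. The change was -0.64 ± 0.22 at 6 h (adjusted p = 0.0448) and -1.21 ± 0.23 at 24 h (adjusted p = 0.00011), when 43.2% of the NT mean was left. The call at 6 h did not hold without any 1 of its 4 libraries (-0.48 to -0.76, adjusted p 0.0554 to 0.354), and the call at 24 h held in every such fit.

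In NANOG-FKBP cells the promoter had 23.2 and 19.0 CPM in NT, 21.0, 33.4 and 23.5 at 2 h, 24.2, 26.2 and 17.5 at 6 h and 22.1, 36.3 and 26.0 at 24 h. The groups overlapped, and the highest library at each time was replicate 2, the low-depth one. The changes of 0.22 ± 0.22, 0.10 ± 0.22 and 0.36 ± 0.22 had adjusted p-values of 0.588 or more. Tested directly at 24 h, the change after OCT4 depletion was lower than that after NANOG depletion by 1.57 ± 0.32 on the log2 scale (adjusted p = 0.00064), and the change after SOX2 depletion was lower by 1.07 ± 0.31 (adjusted p = 0.027). Between SOX2 and OCT4 depletion the promoter changes differed by 0.50 ± 0.32 (adjusted p = 0.52).

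The upstream enhancers of Nanog gave another picture. At -4.7 kb (chr6:122702099-122703229) no test was passed in any line at any time, although this was the most open peak of the locus. In SOX2-FKBP cells it had 54.6 and 49.5 CPM in NT and 66.5 and 54.7 at 24 h, a change of 0.22 ± 0.16 (adjusted p = 0.36), while the promoter fell over the same hours. In OCT4-FKBP cells it had 101 and 93.3 CPM in NT and 74.4 and 93.2 at 24 h, a change of -0.22 ± 0.28 (adjusted p = 0.64).

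In NANOG-FKBP cells the -4.7 kb peak had 67.2 and 56.4 CPM in NT, and the replicate 2 libraries reached 122 at 2 h, 103 at 6 h and 147 at 24 h while the other treated libraries lay between 60.1 and 91.0. The change at 24 h was 0.67 ± 0.27 (adjusted p = 0.24). The -44.4 kb peak (chr6:122662472-122664155), in the known enhancer between Dppa3 and Nanog, likewise passed no test. In SOX2-FKBP cells it had 37.8 and 39.8 CPM in NT and 28.9 to 34.6 over the 10 treated libraries, which did not overlap with NT, with changes of -0.24 to -0.35. In OCT4-FKBP cells its 24 h libraries were 33.1 and 59.7 CPM, on either side of the NT values of 39.5 and 53.7. The OCT4-FKBP change at 2 h was called under the replicate block (0.51, adjusted p = 0.0257).

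**Figure D2:**
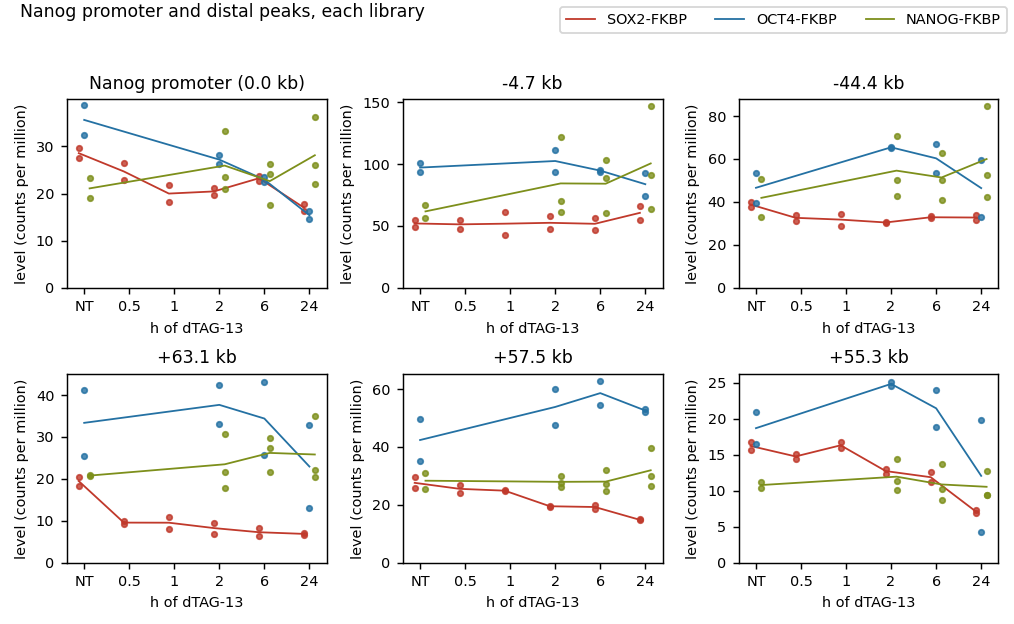
Level in CPM (vertical axes, starting at 0) of the Nanog promoter, the -4.7 and -44.4 kb peaks upstream and the +55.3, +57.5 and +63.1 kb peaks downstream, against the time of dTAG-13 in h at equal spacing. Points are libraries and lines join group means. The level at +63.1 kb drops by 0.5 h in SOX2-FKBP cells, whose points then stay below both NT points, and the -4.7 kb panel shows the 3 NANOG-FKBP points of replicate 2 above the others of that line.

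The downstream cluster around +60 kb, in introns of the longest Slc2a3 transcripts, held the earliest loss after SOX2 depletion. At +63.1 kb (chr6:122770066-122771161) SOX2-FKBP libraries had 18.4 and 20.5 CPM in NT, 9.26 and 9.81 at 0.5 h, 10.99 and 8.04 at 1 h, 6.90 and 9.56 at 2 h, 8.18 and 6.30 at 6 h and 7.1 and 6.58 at 24 h. All 10 treated libraries were far below both NT libraries, and most of the drop was present at the first time. The log2 fold change was -1.02 ± 0.20 at 0.5 h (adjusted p = 0.00109), -0.997 ± 0.20 at 1 h and -1.50 ± 0.20 at 24 h (adjusted p = 3.44e-07), when 35.2% of the NT mean was left. The calls from 1 h on held under every alternative, and at 0.5 h the change without 0.5 h replicate 1 was -0.98 (adjusted p = 0.122).

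In OCT4-FKBP cells the +63.1 kb peak had 25.5 and 41.2 CPM in NT and 12.98 and 32.9 at 24 h. Replicate 2 was above replicate 1 at each of the 4 times, the groups overlapped, and the change at 24 h was -0.55 ± 0.30 (adjusted p = 0.19). It was -0.59 (adjusted p = 0.0088) with the replicate block. In NANOG-FKBP cells the level was 20.6 and 21.0 CPM in NT and 17.9 to 35.0 in treated libraries, and no time was called. The change after SOX2 depletion was lower than that after NANOG depletion by 1.68 ± 0.43 at 6 h (adjusted p = 0.017) and by 1.71 ± 0.44 at 24 h (adjusted p = 0.00897). Against OCT4 depletion it was lower by 1.34 ± 0.43 at 2 h (adjusted p = 0.12) and 1.41 ± 0.43 at 6 h (adjusted p = 0.067). With the block these differences passed, at 1.37 (adjusted p = 0.000284) and 1.41 (adjusted p = 0.000116), and so did that at 24 h (-0.87, adjusted p = 0.0476).

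Its neighbours were called later. The +57.5 kb peak (chr6:122764337-122765528) had 25.7 and 29.4 CPM in NT, 24.0 to 26.9 at 0.5 and 1 h, 19.7 and 19.2 at 2 h and 15.0 and 14.6 at 24 h of SOX2 depletion. The change was -0.49 ± 0.16 at 2 h (adjusted p = 0.038) and -0.89 ± 0.16 at 24 h (adjusted p = 5.02e-05). The 2 h call did not hold without any 1 of its 4 libraries (-0.40 to -0.60, adjusted p 0.0809 to 0.327), nor did that at 6 h without NT replicate 1 (-0.62, adjusted p = 0.0529), NT replicate 2 (-0.42, adjusted p = 0.23) or 6 h replicate 2 (-0.45, adjusted p = 0.178). In OCT4-FKBP cells this peak went from 35.2 and 49.5 CPM in NT to 52.1 and 53.0 at 24 h, above both NT values, a change of 0.31 ± 0.21 (adjusted p = 0.32). The change after SOX2 depletion was lower than that after OCT4 depletion by 1.16 ± 0.31 at 24 h (adjusted p = 0.025) and lower than that after NANOG depletion by 0.996 ± 0.30 (adjusted p = 0.0351), the latter being 0.87 (adjusted p = 0.0671) without the 3 low-depth libraries.

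At +55.3 kb (chr6:122762611-122763496) the loss after SOX2 depletion came at the last time, from 16.8 and 15.7 CPM in NT through 12.6 and 11.2 at 6 h to 7.32 and 6.90 at 24 h (log2 fold change -1.19 ± 0.19, adjusted p = 4.87e-06). The 6 h change was called as well with the replicate block (-0.46, adjusted p = 0.028). The 24 h libraries of OCT4-FKBP cells disagreed there, at 4.28 CPM in replicate 1 and 19.9 in replicate 2 against 16.5 and 20.9 in NT, a change of -0.65 ± 0.31 (adjusted p = 0.13), or -0.70 with the block (adjusted p = 0.0101). The remaining calls of the cluster at 24 h of SOX2 depletion, named after their values were seen, were losses at +58.8 kb (-1.0 ± 0.20) and +72.6 kb (-1.18 ± 0.23). In all, 5 of the 10 peaks of this segment were lost at 24 h of SOX2 depletion (against 14.1% of all peaks) and 1 of the 10 at 24 h of OCT4 depletion (+72.6 kb, -0.87 ± 0.28, against 12.7%).

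Opposite to these, the +65.3 kb peak (chr6:122772559-122773065), with a peak lost after SOX2 depletion on each side, opened after OCT4 depletion. OCT4-FKBP libraries had 6.73 and 7.06 CPM in NT, 13.9 and 11.01 at 2 h, 14.2 and 26.4 at 6 h and 19.4 and 37.4 at 24 h. All treated libraries were above NT, and at 6 and 24 h replicate 2 was well above replicate 1. The log2 fold change was 0.84 ± 0.32 at 2 h (adjusted p = 0.124, or 0.86 with the replicate block, adjusted p = 0.00185), 1.56 ± 0.32 at 6 h (adjusted p = 0.000366) and 2.04 ± 0.33 at 24 h (adjusted p = 7.57e-06). In SOX2-FKBP cells the level was 7.44 and 5.01 CPM in NT and 6.10 and 3.45 at 24 h, a change of -0.43 ± 0.33 (adjusted p = 0.39). The difference between the changes in these lines was 2.41 ± 0.50 at 24 h (adjusted p = 0.00293) and 1.67 ± 0.49 at 6 h (adjusted p = 0.0495), the latter with an adjusted p of 0.0591 without the 3 low-depth libraries. The +53.7 kb peak also opened at 24 h of OCT4 depletion, from 8.38 and 8.68 CPM to 19.7 and 17.2 (1.11 ± 0.25, adjusted p = 0.000872).

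Upstream of Dppa3 the largest loss of the locus followed OCT4 depletion. The -82.8 kb peak (chr6:122624371-122625133), whose summit lies upstream of the Dppa3 start and between the pair of POU matches printed above, had 27.6 and 29.4 CPM in NT, 5.42 and 6.16 at 2 h, 5.55 and 4.32 at 6 h and 4.12 and 4.23 at 24 h. The replicates lay close together, and the mean was 20.3% of NT at 2 h and 14.7% at 24 h. The log2 fold changes were -2.29 ± 0.26 (adjusted p = 8.53e-08), -2.53 ± 0.26 and -2.77 ± 0.30 (adjusted p = 3.49e-09), and they were called under every alternative.

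After SOX2 depletion the same peak was lost at 1, 2 and 6 h and not at 24 h. It had 23.2 and 21.7 CPM in NT, 16.5 and 17.8 at 0.5 h, 15.8 and 10.8 at 1 h, 13.1 and 8.62 at 2 h, 14.3 and 11.2 at 6 h and 21.0 and 12.4 at 24 h. Replicate 2 was lower than replicate 1 from 1 h on, and at 24 h replicate 1 was close to the NT values. The change was -0.73 ± 0.21 at 1 h, -1.06 ± 0.21 at 2 h (adjusted p = 0.0005), -0.83 ± 0.21 at 6 h and -0.43 ± 0.21 at 24 h (adjusted p = 0.127). The last was -0.43 with an adjusted p of 0.0188 with the replicate block. The 2 h call was lost without 2 h replicate 2 (-0.78, adjusted p = 0.06). That at 6 h was lost without NT replicate 1 (-0.77, adjusted p = 0.0858) or 6 h replicate 2 (-0.66, adjusted p = 0.126), and that at 1 h without NT replicate 1 (-0.68, adjusted p = 0.234), NT replicate 2 (-0.78, adjusted p = 0.103) or 1 h replicate 2 (-0.51, adjusted p = 0.214).

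In NANOG-FKBP cells the -82.8 kb peak ranged from 13.5 to 28.6 CPM over all libraries, with 19.0 and 13.5 in NT, and was not called. The change after OCT4 depletion was lower than that after NANOG depletion by 2.31 ± 0.36 at 2 h (adjusted p = 0.000117), 2.72 ± 0.36 at 6 h and 3.18 ± 0.39 at 24 h (adjusted p = 2.59e-07). It was lower than that after SOX2 depletion by 1.75 ± 0.36 at 6 h (adjusted p = 0.00227) and 2.38 ± 0.39 at 24 h (adjusted p = 0.000186). At 2 h the difference of 1.30 ± 0.37 had an adjusted p of 0.0555, which was 0.00101 with the replicate block.

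The Dppa3 promoter itself (-81.1 kb, chr6:122626240-122626676) was called lost after OCT4 depletion at 6 and 24 h. OCT4-FKBP libraries had 14.4 and 8.40 CPM in NT, 7.26 and 4.91 at 2 h, 6.77 and 3.64 at 6 h and 5.65 and 5.37 at 24 h. Every treated library was below both NT libraries, and the change was -1.12 ± 0.34 at 6 h (adjusted p = 0.0234) and -1.04 ± 0.38 at 24 h (adjusted p = 0.0405). Without NT replicate 1, the higher of the pair, it was -0.69 (adjusted p = 0.357) and -0.61 (adjusted p = 0.356). The 6 h call was also lost without 6 h replicate 2 (-0.71, adjusted p = 0.327), and the 24 h call without 24 h replicate 1 (-1.06, adjusted p = 0.167) or replicate 2 (-1.0, adjusted p = 0.15). The block added a call at 2 h (-0.89, adjusted p = 0.00309). SOX2-FKBP libraries had 0.47 to 2.75 CPM and NANOG-FKBP libraries 0 to 2.62, and no time was called in either line.

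Between Gdf3 and Dppa3, the -89.8 kb peak (chr6:122617281-122618197) closed step by step after OCT4 depletion, from 11.99 and 15.9 CPM in NT to 6.58 and 7.86 at 2 h, 4.32 and 5.06 at 6 h and 3.36 and 2.44 at 24 h. No treated library overlapped with NT, and 20.8% of the NT mean was left at 24 h. The change was -0.95 ± 0.25 at 2 h (adjusted p = 0.0116), -1.57 ± 0.26 at 6 h (adjusted p = 1.37e-05) and -2.26 ± 0.31 at 24 h (adjusted p = 4.42e-07). The 2 h call was lost without NT replicate 2 (-0.71, adjusted p = 0.225), 2 h replicate 1 (-0.83, adjusted p = 0.159) or 2 h replicate 2 (-1.07, adjusted p = 0.0544). After SOX2 depletion the peak was called at 24 h, with 6.99 and 5.50 CPM against 14.4 and 11.2 in NT (-1.05 ± 0.22, adjusted p = 0.00047), which was -0.84 without NT replicate 1 (adjusted p = 0.0505). In NANOG-FKBP cells it stayed between 5.18 and 9.71 CPM. The change after OCT4 depletion was lower than that after NANOG depletion by 1.61 ± 0.37 at 6 h (adjusted p = 0.00469) and 2.19 ± 0.42 at 24 h (adjusted p = 0.000303).

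Within Gdf3 the broad -98.9 kb peak (chr6:122607881-122610076), which ends just inside the annotated 5′ end of the gene, was picked for description after its values were seen. OCT4-FKBP libraries had 44.5 and 54.9 CPM in NT, 30.9 and 32.9 at 2 h, 28.4 and 28.4 at 6 h and 22.6 and 29.9 at 24 h. The loss was -0.64 ± 0.20 at 2 h (adjusted p = 0.0464), -0.81 ± 0.20 at 6 h (adjusted p = 0.00443) and -0.92 ± 0.21 at 24 h (adjusted p = 0.00105). The 2 h call did not hold without any 1 of its 4 libraries (-0.47 to -0.78, adjusted p 0.051 to 0.407). That at 6 h was lost without NT replicate 2 (-0.63, adjusted p = 0.136) and that at 24 h without 24 h replicate 1 (-0.72, adjusted p = 0.0557). In SOX2-FKBP cells it went from 41.5 and 44.0 CPM in NT to 33.8 and 35.0 at 24 h (-0.31 ± 0.15, adjusted p = 0.13), and in NANOG-FKBP cells the 24 h libraries had 48.4, 71.3 and 51.5 CPM against 42.2 and 40.6 in NT (0.44 ± 0.19, adjusted p = 0.35). The change after OCT4 depletion was lower than that after NANOG depletion by 0.93 ± 0.28 at 6 h (adjusted p = 0.0424) and 1.36 ± 0.29 at 24 h (adjusted p = 0.00115).

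At the far end, the -116.2 kb peak in an intron of Apobec1, which encodes a cytidine deaminase that edits RNA, was the 1 peak lost after SOX2 depletion and after NANOG depletion. SOX2-FKBP libraries had 16.2 and 16.98 CPM in NT, 11.5 and 11.6 at 0.5 h, 9.62 and 9.75 at 1 h, 9.37 and 10.1 at 2 h, 8.29 and 8.73 at 6 h and 6.87 and 8.63 at 24 h. The replicates were close, and the level went down over the course to 46.8% of NT. The change was -0.52 ± 0.18 at 0.5 h (adjusted p = 0.14), -0.77 ± 0.19 at 1 h (adjusted p = 0.0062) and -1.09 ± 0.19 at 24 h (adjusted p = 2.24e-05). The call at 1 h was lost without NT replicate 2 (-0.74, adjusted p = 0.0568) or 1 h replicate 1 (-0.76, adjusted p = 0.082).

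NANOG-FKBP libraries had 12.4 and 9.82 CPM at -116.2 kb in NT, 4.73, 2.62 and 4.77 at 2 h, 4.18, 4.67 and 6.70 at 6 h and 4.32, 2.27 and 4.01 at 24 h. All 9 treated libraries were below both NT libraries. The change was -1.32 ± 0.31 at 2 h (adjusted p = 0.018), -1.16 ± 0.30 at 6 h (adjusted p = 0.0397) and -1.51 ± 0.30 at 24 h (adjusted p = 0.00148). Without the 3 low-depth libraries these were -1.21 (adjusted p = 0.0585), -1.13 (adjusted p = 0.0874) and -1.41 (adjusted p = 0.00677). Without NT replicate 1 they were -1.15 (adjusted p = 0.29), -0.99 (adjusted p = 0.401) and -1.33 (adjusted p = 0.079). The 2 h call was also lost without 2 h replicate 1 (-1.45, adjusted p = 0.111) or 3 (-1.38, adjusted p = 0.0512), and the 6 h call without NT replicate 2 (-1.33, adjusted p = 0.0601), 6 h replicate 1 (-0.95, adjusted p = 0.356) or 6 h replicate 2 (-1.15, adjusted p = 0.0854). In OCT4-FKBP cells the peak had 10.7 and 18.8 CPM in NT and 7.02 and 15.9 at 24 h (-0.38 ± 0.28, adjusted p = 0.37). No difference between lines passed at this peak without the replicate block, the lowest adjusted p being 0.062 for OCT4 against NANOG depletion at 2 h (1.35 ± 0.40). With the block SOX2 against OCT4 depletion passed at 6 h (-0.95, adjusted p = 0.0143). So did OCT4 against NANOG depletion at 2, 6 and 24 h (1.56, 1.39 and 1.32, adjusted p = 0.000276, 0.000572 and 0.00216). The NANOG-FKBP replicate numbers were not taken to pair libraries.

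**Figure D3:**
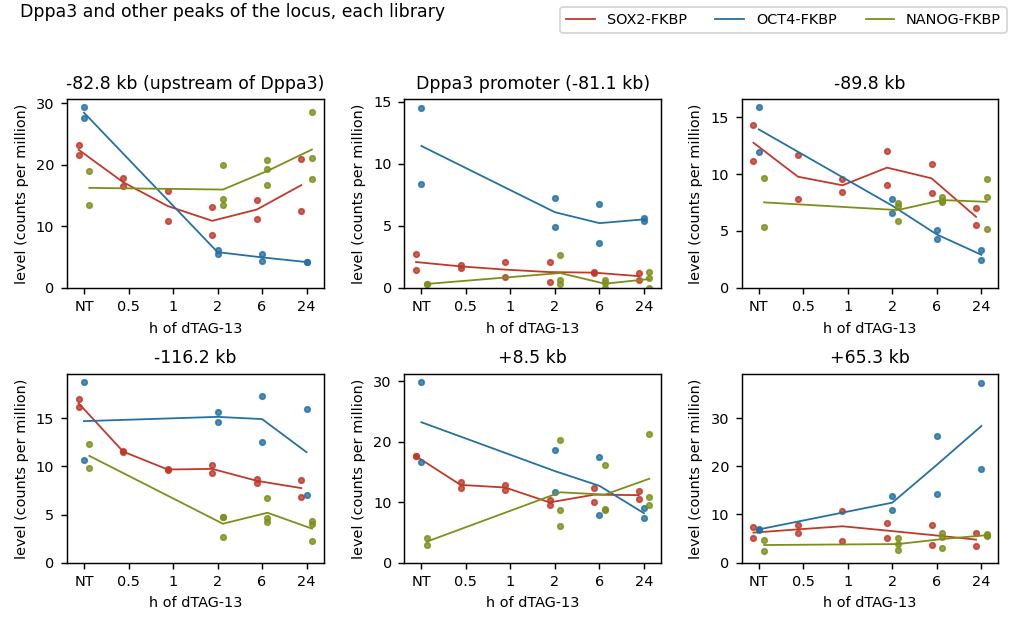
Level in CPM (vertical axes, starting at 0) of the -82.8, -81.1, -89.8, -116.2, +8.5 and +65.3 kb peaks against the time of dTAG-13 in h at equal spacing. Points are libraries and lines join group means. The OCT4-FKBP points at -82.8 kb lie at 6.16 CPM or less from 2 h on, against 27.6 and 29.4 in NT. At +8.5 kb the 9 treated NANOG-FKBP points lie above both NT points of that line, while the treated SOX2-FKBP points and the OCT4-FKBP points at 24 h lie below the NT points of theirs.

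Past the 3′ end of Nanog the +8.5 kb peak (chr6:122715040-122716455) fell in 2 lines and rose in the third. SOX2-FKBP libraries had 17.6 and 17.6 CPM in NT, 9.48 and 10.4 at 2 h and 11.9 and 10.5 at 24 h. The change was -0.82 ± 0.18 at 2 h (adjusted p = 0.0014), -0.65 ± 0.18 at 6 h (adjusted p = 0.0091) and -0.66 ± 0.18 at 24 h (adjusted p = 0.0058). In the fit of 27 libraries none of these was called, at -0.755 (adjusted p = 0.295), -0.597 (adjusted p = 0.401) and -0.616 (adjusted p = 0.259). The 6 h call was lost without NT replicate 1 (-0.65, adjusted p = 0.0818), NT replicate 2 (-0.65, adjusted p = 0.0569) or 6 h replicate 2 (-0.51, adjusted p = 0.178), and the 24 h call without NT replicate 1 (-0.66, adjusted p = 0.0522) or 24 h replicate 2 (-0.58, adjusted p = 0.0576). OCT4-FKBP libraries had 29.8 and 16.6 CPM in NT and 9.01 and 7.32 at 24 h, a change of -1.50 ± 0.37 (adjusted p = 0.00203), or -1.02 without NT replicate 1 (adjusted p = 0.0694). With the replicate block the OCT4-FKBP changes at 2 h (-0.60, adjusted p = 0.0135) and 6 h (-0.90, adjusted p = 5.1e-05) were called as well.

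In NANOG-FKBP cells the +8.5 kb peak had 4.08 and 2.83 CPM in NT, 8.63, 20.3 and 5.97 at 2 h, 8.73, 16.2 and 8.86 at 6 h and 10.8, 21.3 and 9.45 at 24 h. All 9 treated libraries were above both NT libraries, with replicate 2 highest at each time. The change was 1.60 ± 0.42 at 6 h (adjusted p = 0.0445) and 1.84 ± 0.41 at 24 h (adjusted p = 0.00577), and without the low-depth libraries it was 1.33 (adjusted p = 0.0855) and 1.55 (adjusted p = 0.0105). It rests on the 2 NT libraries: the 24 h change was 2.14 without NT replicate 1 (adjusted p = 0.0559) and 1.60 without NT replicate 2 (adjusted p = 0.115). The 6 h call was lost on leaving out any 1 of its 5 libraries (1.32 to 1.89, adjusted p 0.0612 to 0.384). This peak lies past the Nanog stop codon (chr6:122713553-122713555). Per the study's text the tag of this line sits at the C-terminus of NANOG, followed by a P2A reporter, and the part of the insertion in the NT level was not tested.

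The largest difference between lines at the locus was at this peak. At 24 h the change after OCT4 depletion was lower than that after NANOG depletion by 3.34 ± 0.55 (adjusted p = 4.32e-05) and the change after SOX2 depletion was lower by 2.46 ± 0.54 (adjusted p = 0.00208). At 2 h these differences were 2.09 ± 0.54 (adjusted p = 0.0234) and 2.23 ± 0.56 (adjusted p = 0.022), and at 6 h 2.46 ± 0.53 (adjusted p = 0.00221) and 2.19 ± 0.55 (adjusted p = 0.0126). All 6 share the NANOG-FKBP NT libraries, and without the 3 low-depth libraries all 6 were called too (-1.76 to -3.06).

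The +5.8 kb peak (chr6:122712835-122713547) in a coding exon, which ends just before the stop codon, was lost in OCT4-FKBP cells at 24 h and passed no test in the other lines. OCT4-FKBP libraries went from 12.97 and 10.1 CPM in NT to 4.73 and 7.16 at 24 h (-0.95 ± 0.25, adjusted p = 0.00447), which was -0.77 without NT replicate 1 (adjusted p = 0.0595) and -0.67 without 24 h replicate 1 (adjusted p = 0.159). NANOG-FKBP libraries had 3.94 and 4.33 CPM in NT and 7.25, 9.99 and 7.12 at 24 h, above NT without overlap (0.90 ± 0.27, adjusted p = 0.064). SOX2-FKBP libraries had 5.85 and 4.37 CPM in NT and 8.39 and 7.65 at 6 h (0.61 ± 0.22, adjusted p = 0.0662, or 0.60 with the replicate block, adjusted p = 0.0275). The change after OCT4 depletion at 24 h was lower than those after NANOG and SOX2 depletion by 1.85 ± 0.37 (adjusted p = 0.00057) and 1.30 ± 0.37 (adjusted p = 0.0425). The difference of 1.14 ± 0.35 from NANOG depletion at 6 h (adjusted p = 0.0479) was 1.15 with an adjusted p of 0.0601 without the low-depth libraries.

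At -17.2 kb (chr6:122689279-122690587), between the known upstream enhancers, NANOG-FKBP libraries had 2.53 and 3.33 CPM in NT and 8.31, 4.54 and 7.77 at 24 h, all above NT (1.35 ± 0.32, adjusted p = 0.0101). Without NT replicate 1 the change was 1.15 (adjusted p = 0.241), without 24 h replicate 1 it was 1.20 (adjusted p = 0.0908), and without the low-depth libraries it was 1.47 (adjusted p = 0.00587). SOX2-FKBP libraries had 8.53 and 8.73 CPM in NT and 5.10 and 4.64 at 24 h (-0.82 ± 0.23, adjusted p = 0.0077), with -0.84 (adjusted p = 0.0576) without NT replicate 1 and -0.77 (adjusted p = 0.0571) without 24 h replicate 2. The SOX2 and NANOG changes at 24 h differed by 2.13 ± 0.43 (adjusted p = 0.000783), and the OCT4 change, from 10.2 and 13.1 CPM to 5.65 and 10.4, was lower than that of NANOG by 1.89 ± 0.42 (adjusted p = 0.00202).

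At Slc2a3 gained and lost peaks lay side by side. The +72.6 kb peak, within 1 kb of an annotated start of the gene, was lost at 24 h of SOX2 and of OCT4 depletion, as given above. At the promoter peak nearest to an annotated start (+35.1 kb, chr6:122742121-122743881) SOX2-FKBP libraries had 26.1 and 24.1 CPM in NT, 25.7 to 30.0 from 0.5 to 6 h and 33.1 and 35.0 at 24 h. OCT4-FKBP libraries had 40.2 and 46.4 CPM in NT, 56.98 and 52.2 at 2 h, 56.7 and 57.3 at 6 h and 77.9 and 65.4 at 24 h. The 24 h libraries were the highest in both lines, and the change was 0.44 ± 0.15 after SOX2 depletion (adjusted p = 0.032) and 0.72 ± 0.21 after OCT4 depletion (adjusted p = 0.0089). The SOX2-FKBP call was lost without any 1 of its 4 libraries (0.38 to 0.50, adjusted p 0.0881 to 0.189), and the OCT4-FKBP call without NT replicate 1 (0.63, adjusted p = 0.0912) or 24 h replicate 1 (0.60, adjusted p = 0.104). With the replicate block the OCT4-FKBP change at 6 h was called too (0.39, adjusted p = 0.0376). NANOG-FKBP libraries stayed between 17.2 and 27.6 CPM, with a change of -0.05 ± 0.21 at 24 h.

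The +37.3 kb peak (chr6:122744573-122745242), in an intron near that promoter and likewise picked after its values were seen, moved in opposite directions in 2 lines. SOX2-FKBP libraries had 10.1 and 11.7 CPM in NT, 5.71 and 5.78 at 2 h, 5.14 and 5.31 at 6 h and 4.55 and 5.61 at 24 h. OCT4-FKBP libraries had 13.1 and 19.1 CPM in NT, 23.0 and 28.6 at 2 h, 24.5 and 27.3 at 6 h and 12.2 and 15.1 at 24 h. The loss after SOX2 depletion was -0.91 ± 0.20 at 2 h (adjusted p = 0.0018) and -1.08 ± 0.21 at 24 h (adjusted p = 0.00014). The gain after OCT4 depletion was 0.68 ± 0.23 at 6 h (adjusted p = 0.0394), which had an adjusted p of 0.0622 at 2 h and was lost at 6 h without NT replicate 1 (0.44, adjusted p = 0.406), 6 h replicate 1 (0.76, adjusted p = 0.077) or 6 h replicate 2 (0.63, adjusted p = 0.157). The gain at 2 h was called with the block (0.69, adjusted p = 0.00191). The changes differed between these lines by 1.53 ± 0.35 at 2 h (adjusted p = 0.0116) and 1.68 ± 0.35 at 6 h (adjusted p = 0.00272).

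Over the 11 peaks of the Slc2a3 segment the median log2 fold change was 0.68 at 2 h of OCT4 depletion. The peaks at +22.4, +24.9 and +27.9 kb were gained at 6 h. In all 3 replicate 1 rose more than replicate 2. The +22.4 kb peak had 7.39 and 4.99 CPM in NT, 14.1 and 6.81 at 2 h and 16.6 and 7.66 at 6 h. The +24.9 kb peak had 14.5 and 11.5 CPM in NT, 38.2 and 14.6 at 2 h and 35.5 and 15.6 at 6 h. The segment median without replicate 1 is not given here. At +27.9 kb (chr6:122735047-122735646) the libraries had 6.98 and 4.65 CPM in NT, 19.8 and 6.88 at 2 h, 17.6 and 10.8 at 6 h and 8.70 and 10.2 at 24 h. Replicate 1 stood far above replicate 2 at 2 and 6 h. The 2 h change of 1.19 ± 0.32 (adjusted p = 0.0137) was 0.26 without 2 h replicate 1 (adjusted p = 0.91) and 0.92 without NT replicate 2 (adjusted p = 0.239). The 6 h change of 1.30 ± 0.32 (adjusted p = 0.00297) was 0.91 without 6 h replicate 1 (adjusted p = 0.131) and 1.05 without NT replicate 2 (adjusted p = 0.108). With the replicate block the 24 h change was called too (0.72, adjusted p = 0.0181). The +44.2 kb peak, further into the introns, was lost after OCT4 depletion at a low level, from 4.02 and 6.61 CPM in NT to 2.29 and 2.6 at 24 h (-1.14 ± 0.35, adjusted p = 0.013). Without NT replicate 2 this was -0.74 (adjusted p = 0.244), and without 24 h replicate 1 it was -1.04 (adjusted p = 0.128). Its 2 h libraries had 2.32 and 3.08 CPM (-0.97 ± 0.30, adjusted p = 0.0382), and the call was lost without NT replicate 2 (-0.54, adjusted p = 0.582), 2 h replicate 1 (-0.81, adjusted p = 0.31) or 2 h replicate 2 (-1.19, adjusted p = 0.0933). At 6 h it had 2.26 and 2.90 CPM (-1.06 ± 0.29, adjusted p = 0.011), and the call was lost without NT replicate 2 (-0.62, adjusted p = 0.404) or 6 h replicate 1 (-0.89, adjusted p = 0.142).

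**Figure D4:**
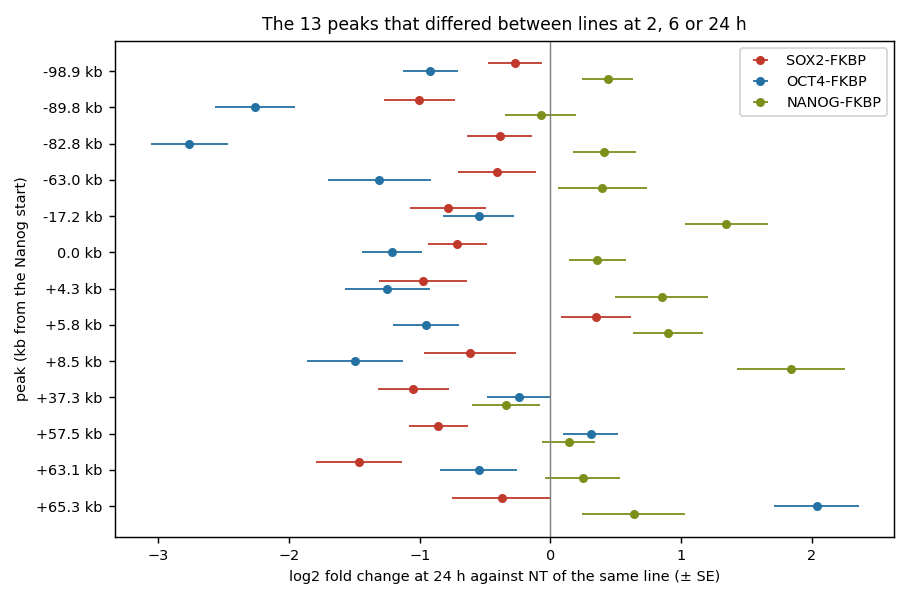
Log2 fold change from NT at 24 h, with its standard error, of the 13 peaks that differed between lines in at least 1 comparison, for the SOX2-FKBP, OCT4-FKBP and NANOG-FKBP lines, all from the fit of 27 libraries. The NANOG-FKBP points at -17.2, +5.8 and +8.5 kb lie above 0, and the OCT4-FKBP points lie lowest at -82.8 and -89.8 kb and highest at +65.3 kb.

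Between lines the changes at 1, 3 and 4 of the 56 peaks differed for SOX2 against OCT4 depletion at 2, 6 and 24 h (1.79%, 5.36% and 7.14%, against 1.57%, 2.73% and 2.77% of all 166430 peaks). For SOX2 against NANOG depletion these were 1, 2 and 6 (1.79%, 3.57% and 10.7%, against 1.75%, 3.27% and 6.78%), and for OCT4 against NANOG depletion 2, 5 and 9 (3.57%, 8.93% and 16.1%, against 2.52%, 4.95% and 8.89%). The 3 sets of comparisons share libraries. In all, 13 peaks differed in at least 1 of the 9 comparisons, and the 5 of the Nanog segment were -17.2, 0.0, +4.3, +5.8 and +8.5 kb. The share of all peaks that differed in at least 1 of the 9 is not given here, so these counts have no background.

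The letters near the summit, which the calls did not use, were counted in lost peaks and in the rest of the locus. Of the 12 peaks lost at 24 h of SOX2 depletion, 8 held SOX letters near the summit (66.7%) against 19 of the other 44 (43.2%), and of the 13 lost at 24 h of OCT4 depletion 4 did (30.8%) against 23 of 43 (53.5%). At 2 h SOX letters were in 4 of the 8 peaks lost after SOX2 depletion and 23 of the other 48 (47.9%), and in 2 of the 4 lost after OCT4 depletion and 25 of 52 (48.1%), so that these shares lay close together. POU letters were in 2 of the 4 peaks lost at 2 h of OCT4 depletion and in 4 of the other 52, and at 24 h in 3 of 13 and 3 of 43. After SOX2 depletion they were in 2 of the 8 lost at 2 h and 4 of 48, and in 2 of the 12 lost at 24 h and 4 of 44. No test was made of these shares.

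The promoters of 24 other genes of the pluripotency network were read in the same fits for comparison. After 2, 6 and 24 h of SOX2 depletion 4, 3 and 10 of the 24 were lost (against 7.28%, 9.28% and 14.1% of all peaks), with a median log2 fold change of the 24 of -0.25 at 24 h. The Nanog promoter with its change of -0.75 ± 0.16 at 24 h stood beside Pou5f1, which encodes OCT4 (-1.17 ± 0.18), Tbx3, a T-box factor of the naive state (-1.31 ± 0.17), and Prdm14, a repressor of differentiation genes (-0.70 ± 0.17). After OCT4 depletion 5 were lost at 24 h (Pou5f1, Tbx3, Fgf4, Nodal and Tcl1, against 12.7% of all peaks) and 4 were gained (Klf4, Klf5, Tfcp2l1 and Nr5a2, all coding for transcription factors, against 10.8%). Among these were Tbx3 at -2.29 ± 0.28 and Tfcp2l1 at 0.88 ± 0.24, while the Nanog promoter had -1.21 ± 0.23. After NANOG depletion 1 promoter was called, Dppa2 at 2 h (-0.92 ± 0.23, adjusted p = 0.0306).

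The promoter peaks whose 11 log2 fold changes lay nearest to those of the Nanog promoter, out of 15144 promoter peaks outside the locus, were those of Fkbp5, Adamtsl1, Tex21, Atxn7l1 and Foxh1, at Euclidean distances of 0.559 to 0.646 against a median of 2.572. At 24 h Foxh1 had -1.08 after SOX2, -1.01 after OCT4 and -0.05 after NANOG depletion, and Fkbp5 had -0.56, -1.04 and -0.01. Likeness in these fits is a description, since all promoters share the same libraries.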

How the data were processed

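ATAC-seq counts of 31 libraries from 3 degron lines were used. The other 14 of the 45 samples of the series were not analysed here. The authors aligned reads to mm10, called peaks on merged libraries and counted reads per peak, and the submitters' processing notes name BWA 0.7.17-r1188, SAMtools 1.10 and Picard 2.12.0. The deposited table holds raw counts per peak, and the deposited peak list gives each peak's fold enrichment and -log10 p- and q-values, of which only positions and summits entered here. Libraries held 1817191 to 17575631 counts, and their number, 2 or 3 per group, limits the precision.

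Counts were fitted with edgeR 4.0.16 in R 4.3.3 (TMM, quasi-likelihood test, Benjamini-Hochberg adjusted p under 0.05 over all peaks). The SOX2-FKBP course used its 12 libraries and the 160432 peaks that exceeded 10 counts in over 2 of them. The other lines and the differences between lines used 27 libraries, without 0.5 and 1 h, and the 166430 peaks that exceeded 10 counts in over 6. All 56 peaks passed both filters. Every adjusted p in the text is from edgeR's test in these fits or, where one is named, in an alternative fit. SE is the size of the log2 fold change divided by the square root of F. On simulated counts, 99 of 100 changes of size 2 on the log2 scale were recovered for SOX2-FKBP at 2 h and 98 of 100 for OCT4-FKBP at 2 h, and 23 of 100 of size 1 in either. The simulation gave every peak the same fixed spread and changed few peaks, all of higher counts. These settings differ from the data.

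The replicate number was checked for pairing: deviations of same-numbered libraries from their group means correlated at 0.119 to 0.345 over 15 pairs of SOX2-FKBP groups, 0.225 to 0.494 over 6 of OCT4-FKBP and 0.014 to 0.415 over 6 of NANOG-FKBP, so the numbers were taken to pair libraries in the first 2 lines. Peaks described in full were the promoter peaks, the most open peak in each of 3 enhancer windows, any peak at the Nanog stop codon, and in each line at 2 and 24 h the 2 called peaks with the largest fall and the 2 with the largest rise. Likeness was computed over promoter peaks averaging 50 or more normalized counts. Alternatives were other scalings, filters, DESeq2 1.42.0, the replicate block, fits of fewer libraries and leaving out each library of the groups compared. The region, peaks, lists and rules were chosen with earlier results of these data known. The sequence of the -116.2 kb peak is not reported here.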

Additional observations from a re-analysis of the deposited data

Results flagged for a closer look

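The following peaks changed differently in 2 lines at the same time, by edgeR's test of the difference between the changes from NT (SOX2 minus OCT4, SOX2 minus NANOG or OCT4 minus NANOG, log2 scale). The comparisons share libraries.

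Upstream of Nanog, the -82.8 kb peak near Dppa3 differed for SOX2 minus OCT4 by 1.75 at 6 h and 2.38 at 24 h, and for OCT4 minus NANOG by -2.31, -2.72 and -3.18 at 2, 6 and 24 h. For OCT4 minus NANOG the -89.8 kb peak differed by -1.61 at 6 h and -2.19 at 24 h, the -98.9 kb peak in Gdf3 by -0.93 and -1.36 at these times, and the -63.0 kb peak by -1.71 at 24 h. At 24 h the -17.2 kb peak differed by -2.13 for SOX2 minus NANOG and -1.89 for OCT4 minus NANOG.

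At Nanog, the promoter differed at 24 h by -1.07 for SOX2 minus NANOG and -1.57 for OCT4 minus NANOG, and the +4.3 kb peak in a Nanog exon by -1.82 and -2.1. The +5.8 kb peak, next to the stop codon, differed for SOX2 minus OCT4 by 1.3 at 24 h and for OCT4 minus NANOG by -1.14 at 6 h and -1.85 at 24 h. The +8.5 kb peak differed for SOX2 minus NANOG by -2.23, -2.19 and -2.46 and for OCT4 minus NANOG by -2.09, -2.46 and -3.34 at 2, 6 and 24 h.

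In Slc2a3, for SOX2 minus OCT4, the +37.3 kb peak differed by -1.53 at 2 h and -1.68 at 6 h, the +65.3 kb peak by -1.67 at 6 h and -2.41 at 24 h, and the +57.5 kb peak by -1.16 at 24 h. For SOX2 minus NANOG the +57.5 kb peak differed by -1.0 at 24 h and the +63.1 kb peak by -1.68 at 6 h and -1.71 at 24 h.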

How the results depend on the processing

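Of the 58 calls at the 20 peaks described in full, 20 held under every alternative and 23 in every fit that left out 1 library, and 38 were lost under at least 1 alternative. Among the 2821 alternative values of these peaks, no direction was reversed where the main or the alternative value was called. Changes of sign between values that were both uncalled were not counted as reversals. Of these values 2637 kept their side of the threshold, 143 were no longer called and 41 became called. The calls that held were +63.1 kb (1 to 24 h), -116.2 and +37.3 kb (6 and 24 h), 0.0, +55.3 and +57.5 kb (24 h) after SOX2 depletion, and -82.8 kb (all times), -89.8 and +65.3 kb (6 and 24 h), 0.0 and +53.7 kb (24 h) after OCT4 depletion. The replicate block lost no call. The NANOG-FKBP numbers were not taken to pair libraries.

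Counts of lost (L) and gained (G) peaks that moved by over 1.5 times were as follows, and the cause was not tested beyond the fewer peaks or libraries of some settings. With the replicate block they were for SOX2 at 0.5 h L 2 and G 1, at 1 h L 7 and G 1, at 6 h G 2, for OCT4 at 2, 6 and 24 h G 8, 11 and 5, and for NANOG G 1 at 2 h and 7 at 24 h. In the same fit the peaks that differed at 2, 6 and 24 h were 7 and 11 (2 and 6 h) for SOX2 against OCT4, 3, 4 and 13 for SOX2 against NANOG, and 5, 10 and 16 for OCT4 against NANOG. By DESeq2 they were for SOX2 L 1 at 1 h, L 5 at 2 h, G 0 at 6 and 24 h, for OCT4 at 6 h L 3 and G 2, for NANOG at 6 h G 0, with 0 and 1 that differed for SOX2 against NANOG at 2 and 6 h and 1 for OCT4 against NANOG at 2 h. With DESeq2's size factors OCT4 at 2 h had G 2, and OCT4 against NANOG at 6 h had 3. Scaled by total counts, SOX2 had L 5 at 2 h and G 2 at 6 h, OCT4 G 2 at 2 h, NANOG L 0 at 2 and 6 h, and SOX2 against OCT4 at 2 h 2. Scaled on chromosome 6, SOX2 at 2 h had L 5, NANOG at 6 h G 0, SOX2 against OCT4 at 24 h 2 and OCT4 against NANOG at 6 h 3. With no count filter SOX2 at 2 h had L 5 and OCT4 at 2 h G 2. In the fit of 27 libraries SOX2 had L 2 at 2 h, L 3 and G 0 at 6 h and G 0 at 24 h. With only the groups compared, SOX2 at 0.5 h had G 1, and OCT4 L 2 at 2 h and G 2 at 6 h. Asking for 10 counts in every library left 46 of the 56 peaks in the SOX2-FKBP fit and 25 in the other, with OCT4 L 2 and G 0 at 2 h, G 0 at 6 h and G 1 at 24 h, and NANOG L 0 at all times, G 0 at 6 h and G 1 at 24 h. Without the 3 low-depth NANOG-FKBP libraries (chosen after seeing the data), NANOG had L 0 at 2 h and L 0 and G 0 at 6 h, OCT4 at 2 h G 2, and SOX2 against OCT4 at 2 h 2. Under the filter on every library the median change of the peaks kept moved by -0.104, -0.147 and -0.191 for OCT4 at 2, 6 and 24 h, and by -0.123 at 24 h with total counts.

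Leaving out each library in turn gave L 0 to 1, 1 to 3, 4 to 6, 3 to 7 and 8 to 13 over the 5 SOX2 times and G 0 at each, for OCT4 L 1 to 3, 4 to 5 and 5 to 16 and G 0 to 5, 2 to 6 and 2 to 3, and for NANOG L 0 to 1 at each time and G 0, 0 and 0 to 2. The peaks that differed were 0 to 3, 2 to 5 and 1 to 4 for SOX2 against OCT4, 0 to 1, 0 to 3 and 3 to 6 for SOX2 against NANOG, and 1 to 3, 3 to 5 and 8 to 10 for OCT4 against NANOG. In the simulated counts a change of 1 on the log2 scale was recovered in 23 of 100 peaks at 2 h. That simulation called 127 peaks, against 11680 lost in the SOX2-FKBP data at 2 h, so its adjusted threshold was stricter. The share is therefore not the power of the tests made here. Changes at single peaks could still go uncalled.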
